A study of Mus musculus with 34 samples.

Results

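The collagen chains are the genes named Col, a type number, the letter a and a chain number. All genes whose symbol had that form in the deposited adipose or heart table were taken, which gave 34 of the 15777 genes found in either table. Of these, 33 were in the adipose table, 29 in the heart table and 28 in both. By class there were 8 fibrillar, 8 network, 6 beaded and 12 other chains. GENCODE M21 annotates 44 mouse genes of this form. The 10 in neither table, Col2a1, Col9a1, Col9a2, Col9a3, Col10a1, Col11a1, Col19a1, Col24a1, Col25a1 and Col26a1, were not analysed here.

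The study fed 18 C57BL/6J mice 1 of 3 diets ad libitum and sequenced ribosomal-RNA-depleted total RNA from heart and adipose tissue, in mice that were 20 to 22 months old per the labels. The control group had a diet with 10% of calories from fat. The HFCD group had a high-fat, high-calorie diet with 60% of calories from fat. The HFCD+FMD group had the HFCD interrupted every 4 weeks by 5 days of a fasting mimicking diet (FMD), a short low-calorie diet. From cycle 6 on, 2 days of control diet stood between the FMD and the return to HFCD. Tissue was taken after 11 cycles, 4 days after an FMD ended, so the HFCD+FMD mice were sampled while refed. The 3 groups shared strain, housing and sampling time, and no group had an FMD on the control diet, so an effect of the FMD itself cannot be told apart from that of less time on HFCD. The labels name neither the fat depot nor the part of the heart. Adipose tissue had 3 control, 4 HFCD and 6 HFCD+FMD libraries, and heart had 5, 5 and 4. The labels do not tie a heart library and an adipose library to the same mouse, and the p-values measure the spread between these libraries.

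Collagens are extracellular proteins in which 3 chains wind around each other into a triple helix. The helix needs a glycine at the head of each Gly-X-Y triplet, where X and Y are any residue, often proline and hydroxyproline. Fibrillar collagens (types I, III, V, XI and XXVII here) pack into the cross-striated fibrils of connective tissue. Network collagens (types IV and VIII) form sheets, type IV in every basement membrane, including the one that wraps each fat cell. Beaded collagen (type VI) forms microfilaments between cells and fibrils, and the carboxy-terminal end of its alpha 3 chain is released as endotrophin, known from fat tissue in obesity. The others attach to fibrils (FACIT chains such as Col12a1, Col14a1 and Col16a1), span the cell membrane (Col13a1, Col17a1, Col23a1) or sit near basement membranes (Col15a1, Col18a1).

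The exons below are shown because the repeated triplet is what these chains share in sequence, which the choice by name did not use. Each is a coding exon of 54 bases from the GENCODE M21 transcript on GRCm38, read on the coding strand. They were taken from the exons of that length in which a glycine codon opens every run of 9 bases, and capitals mark those opening codons (GGN). Col1a1 is fibrillar and on chr11:94939904-94939957, plus strand. Col3a1 is fibrillar and on chr1:45325360-45325413, plus strand. Col4a1 is a network chain on chr8:11245211-11245264, minus strand. Col6a3 is beaded and on chr1:90795915-90795968, minus strand. Col23a1 spans the membrane and is on chr11:51569461-51569514, plus strand.
Col1a1: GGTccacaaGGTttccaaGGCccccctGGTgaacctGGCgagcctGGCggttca
Col3a1: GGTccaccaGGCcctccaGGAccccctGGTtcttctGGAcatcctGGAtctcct
Col4a1: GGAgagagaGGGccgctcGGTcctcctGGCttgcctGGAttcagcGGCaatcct
Col6a3: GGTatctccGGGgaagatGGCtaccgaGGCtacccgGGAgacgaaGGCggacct
Col23a1: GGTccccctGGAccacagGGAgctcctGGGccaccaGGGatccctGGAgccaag

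Each of these exons codes for 6 whole triplets, which the choice fixed. Over the 34 chains, 58.9% of 1620 coding exons had a length divisible by 9 and 19.8% were exactly 54 bases long. Over the 13981 coding genes of either table these shares were 14.1% and 0.633%. The classes differed in this measure. Of the fibrillar coding exons 81.8% were multiples of 9 and 46.4% were 54 bases, against 45.3% and 4.0% in network, 51.4% and 7.8% in beaded and 50.9% and 11.7% in the other chains. The longest unbroken run of triplets was 338 in Col1a1 and Col5a1 and 344 in Col3a1, against 40 in Col4a1, whose helix is interrupted, and 87 in Col6a1. Col8a1 had a run of 61 on only 2 coding exons.

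Facts of the libraries that touch the chains were these. Totals ran from 15604982 to 40831656 counts in adipose tissue and from 16848195 to 47859170 in heart. Values below are CPM, which are counts scaled to a common library total after adjusting library sizes by TMM (trimmed mean of M-values). In adipose tissue mitochondrial genes took 12.6 to 29.3% of the control libraries and 2.17 to 7.47% of the others. Control replicate 1 was highest, with a scaling factor of 0.662, and HFCD+FMD replicate 4 had the lowest summed fibroblast and mesothelial markers of its group. In heart this share was 59.8 to 71.5% in HFCD replicates 3 and 5 and HFCD+FMD replicates 3 and 5, and 21.8 to 42.7% in the others. Results are given below with and without these 6 libraries where that changes a call. The defining markers were those of the labelled tissues. Cardiomyocyte markers summed to 30900 CPM or more in every heart library and to at most 131 CPM in adipose tissue, and adipocyte markers to 36100 CPM or more in every adipose library. The heart libraries also held 4990 to 9370 CPM of adipocyte markers, some of which heart muscle expresses. Most of this was Lpl, at 4500 to 8510 CPM, and Fabp4, at 293 to 804 CPM. The other markers were at most at 33.2 CPM in any heart library.

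In adipose tissue the collagen chains were broadly higher on HFCD than on the control diet, and none was lower by the same test. Of 33 chains 16 rose, 0 fell, and 26 had an estimate above 0. Across all 15112 genes tested 15.7% rose in this comparison. The median log2 fold change was 0.81 over the chains and -0.001 over all genes. By class 5 of 8 fibrillar, 3 of 8 network, 3 of 6 beaded and 5 of 11 other chains rose. Calls are from edgeR's quasi-likelihood test with Benjamini-Hochberg adjustment over all genes at a false discovery rate of 0.05. In bulk tissue, more RNA per cell and more cells of a type cannot be told apart.

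**Figure D1:**
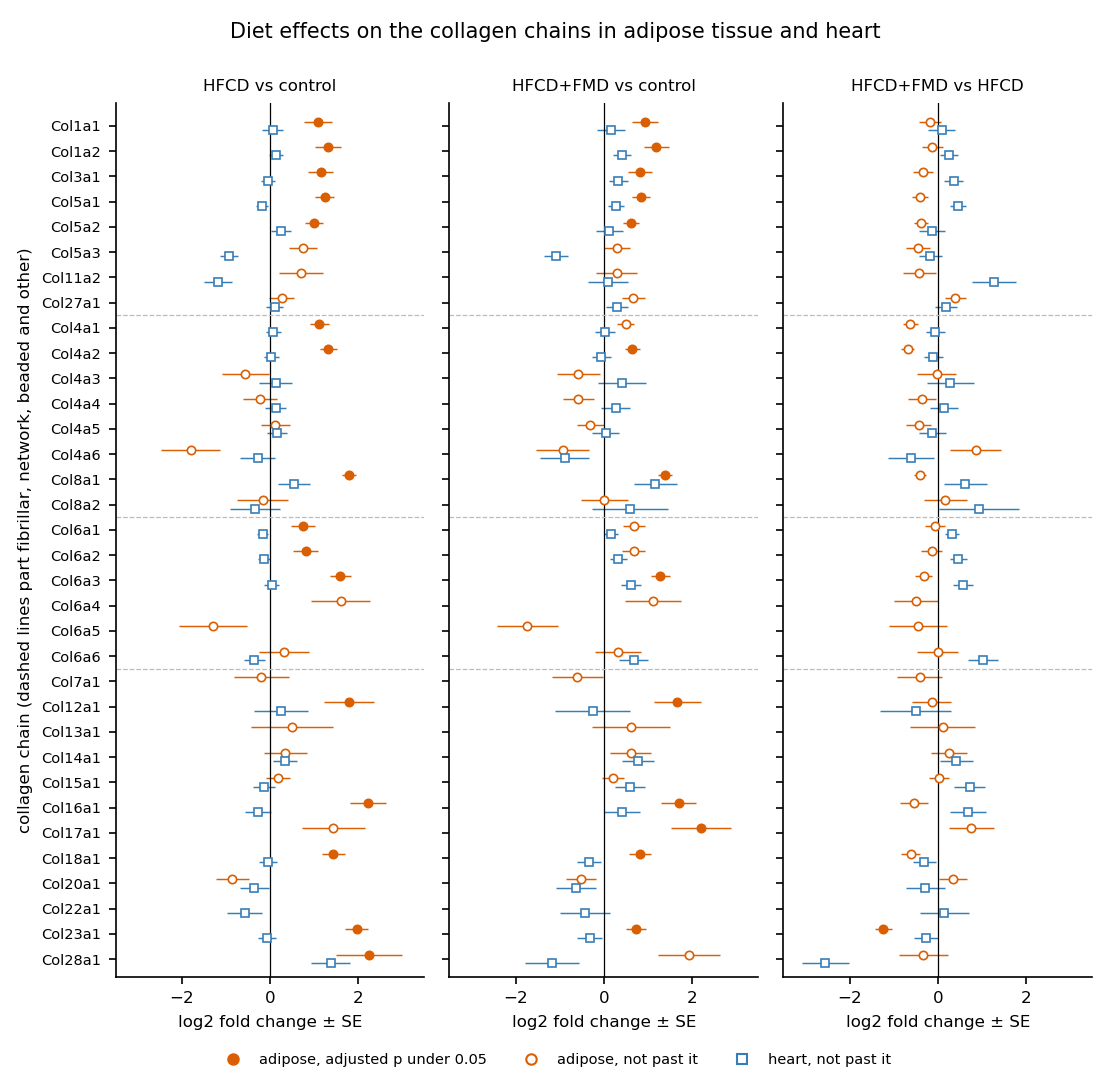
Log2 fold change (x axis, bars are 1 SE) of each collagen chain (y axis, grouped by class) for the 3 diet comparisons, with adipose tissue as circles and heart as squares. Filled symbols have an adjusted p under 0.05. In adipose tissue 16 chains are filled for HFCD against control and 1 for HFCD+FMD against HFCD, and no heart square is filled.

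Type I and III chains build the thick fibrils. Col1a1, the alpha 1 chain of type I, was at 421.8, 568.2 and 755.7 CPM in the control libraries and at 884, 866, 1344 and 1891 CPM on HFCD. All HFCD libraries lay above all control libraries, and the lowest HFCD value was 866. The log2 fold change was 1.10 (SE 0.31, edgeR adjusted p = 0.0196). Col1a2, its alpha 2 partner, was at 237, 312 and 511 CPM on control and at 699, 704, 906 and 1219 CPM on HFCD, again without overlap, and rose by 1.32 (SE 0.30, edgeR adjusted p = 0.00684). Col3a1, the single chain of type III, was at 774, 1152 and 1411 CPM on control and at 1768, 1871, 2631 and 3601 CPM on HFCD. It rose by 1.15 (SE 0.29, edgeR adjusted p = 0.0111). In all 3 chains replicates 3 and 4 were the highest of the HFCD libraries and control replicate 1 was the lowest library of all.

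Type V is a minor fibrillar collagen that sits inside type I fibrils and limits their width. Col5a1 was at 135, 178 and 263 CPM on control and at 459, 420, 461 and 476 CPM on HFCD. The HFCD libraries were tight and clear of the control ones, and the gene rose by 1.24 (SE 0.22, edgeR adjusted p = 0.00221). Col5a2 went from 90.6, 150.2 and 177.3 CPM to between 264.5 and 294.9 CPM, a log2 fold change of 1.0 (SE 0.20, edgeR adjusted p = 0.00435). Col5a3, the type V chain with the highest adipose level per length, was at 186, 434 and 363 CPM on control and at 594, 669, 496 and 451 CPM on HFCD. Its groups did not overlap either, but the estimate of 0.75 missed the threshold (SE 0.33, edgeR adjusted p = 0.0973). The 2 remaining fibrillar chains were low, with Col11a2 under 1 CPM and Col27a1 at 3.91 to 12.4 CPM in all adipose libraries, and neither passed the test.

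**Figure D2:**
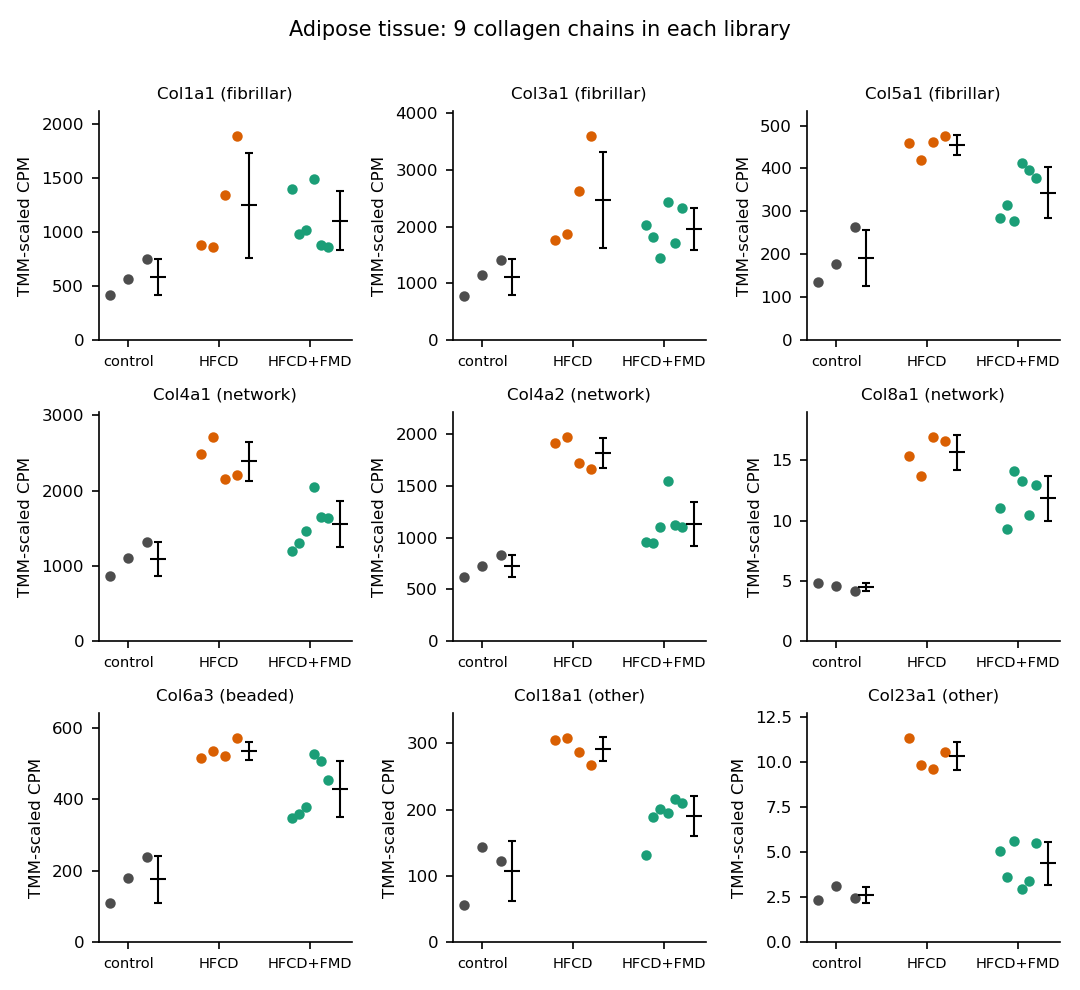
TMM-scaled CPM (y axis, linear from 0) of 9 collagen chains in each of the 13 adipose libraries by diet (x axis), with points for libraries and bars for the mean and 1 SD. The HFCD points lie above every control point in all 9 panels. All 9 chains shown were called higher on HFCD, as 15.7% of all genes were, so the lack of overlap is no separate result.

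Among the network chains the rise was in the pair that makes the common type IV heterotrimer and in one type VIII chain. Col4a1 was at 863, 1110 and 1314 CPM on control and at 2480, 2712, 2157 and 2209 CPM on HFCD. It rose by 1.125 (SE 0.21, edgeR adjusted p = 0.00301). Col4a2 was at 618, 723 and 831 CPM on control and at 1909, 1971, 1721 and 1661 CPM on HFCD, a rise of 1.33 (SE 0.19, edgeR adjusted p = 0.000876). Neither gene's groups overlapped, and the lowest HFCD library was well above the highest control library. Col8a1, a short-chain network collagen of vessel walls, was at 4.84, 4.58 and 4.16 CPM on control and at 15.36, 13.73, 16.95 and 16.62 CPM on HFCD. It had the lowest adjusted p of the chains, with a rise of 1.80 (SE 0.17, edgeR adjusted p = 0.00025). The other 5 network chains did not pass the test, and they pulled the class median to -0.02. Col4a3, Col4a4 and Col4a5, which form the specialised type IV networks of kidney and lung, stayed between 0.445 and 11.8 CPM in every adipose library, and Col8a2 between 0.831 and 4.995 CPM. Col4a6, named after its values were seen, had control values of 4.85 to 7.99 CPM and HFCD values of 0.665 to 2.38 CPM. These did not overlap and the estimate was -1.80 (SE 0.67, edgeR adjusted p = 0.0582), and DESeq2 called it lower, as it did 17.4% of all genes.

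The beaded chains moved unequally. Col6a3 was at 110, 180 and 240 CPM on control and at 515, 535, 521 and 571 CPM on HFCD, and rose by 1.601 (SE 0.24, edgeR adjusted p = 0.00113). Col6a1, at 315, 699 and 819 CPM on control and 844 to 1223 CPM on HFCD, rose by 0.75 (SE 0.27, edgeR adjusted p = 0.0486). Control replicate 1 was far below the other control libraries for this gene. Col6a2, at 329, 670 and 880 CPM on control and at 966, 850, 1358 and 1218 CPM on HFCD, rose by 0.81 (SE 0.28, edgeR adjusted p = 0.0457), and its groups overlapped. Both calls are close to the threshold, and Col6a1 remained called in only 2 of the 13 fits that each leave out 1 library and Col6a2 in 5, while Col6a3 remained in all 13. Col6a4, Col6a5 and Col6a6, which can stand in for the alpha 3 chain, did not pass the test, with estimates of 1.61, -1.29 and 0.33.

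Of the other chains the membrane-spanning Col23a1 and the basement membrane chain Col18a1, source of the fragment endostatin, had HFCD libraries close to each other. Col23a1 was at 2.32, 3.11 and 2.44 CPM on control and at 11.3, 9.81, 9.61 and 10.6 CPM on HFCD, a rise of 1.97 (SE 0.25, edgeR adjusted p = 0.000564). Col18a1 was at 56.4, 144.3 and 122.5 CPM on control and at 268 to 308 CPM on HFCD, a rise of 1.44 (SE 0.26, edgeR adjusted p = 0.00275). In both genes every HFCD library was above every control library. Col16a1, a FACIT chain, went from 7.65, 7.38 and 19.6 CPM to 63.6, 77.1, 44.5 and 33.4 CPM and rose by 2.23 (SE 0.42, edgeR adjusted p = 0.00325). Col12a1, a FACIT chain of stressed tendon and muscle, went from 6.49, 7.91 and 11.3 CPM to between 23.6 and 40.3 CPM and rose by 1.80 (SE 0.56, edgeR adjusted p = 0.0298). Col28a1, a chain described mainly around peripheral nerve, went from 2.52, 5.91 and 10.5 CPM to 40.5, 50.43, 15.03 and 17.12 CPM and rose by 2.25 (SE 0.74, edgeR adjusted p = 0.0369). Its HFCD libraries fell into a high and a low pair. Col15a1, a close relative of Col18a1, did not pass the test. Its control values of 734, 1230 and 892 CPM overlapped HFCD values of 1232, 944, 1097 and 1061 CPM, with an estimate of 0.19 (SE 0.27, edgeR adjusted p = 0.627). The test of the Col15a1 change against that of Col18a1 was not made.

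With control replicate 1 left out, 10 of the 16 calls remained, namely Col1a2, Col4a1, Col4a2, Col5a1, Col5a2, Col6a3, Col8a1, Col16a1, Col18a1 and Col23a1. With both adipose libraries that stand apart left out, 13 chains rose and 1, Col4a6, fell. Library totals without scaling factors moved the median of all genes in this comparison to 0.444 on the log2 scale. With these totals 18 chains rose, as did 6205 of all 15112 genes.

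The order of the chains was compared only as CPM per kilobase of annotated exons, which understates genes with long alternative exons. On the control diet Col15a1 led at 149.9 ± 39.9 (SD, n = 3), followed by Col4a1 at 146.8 ± 30.2 and Col6a1 at 139.5 ± 60.1. Col3a1 (113.3 ± 32.6), Col4a2 (109.4 ± 16.1), Col1a1 (88.7 ± 25.5) and Col6a2 (75.2 ± 33.4) came next. Neighbours in this order differed by less than the larger of their SDs. On HFCD Col4a1 led at 320.1 ± 34.5 (SD, n = 4), ahead of Col4a2 at 274.3 ± 22.4, Col3a1 at 251.4 ± 86.4 and Col6a1 at 234.6 ± 38. Col1a1 stood at 189.9 ± 73.7 and Col15a1 at 170.7 ± 18.6, so Col15a1 went from the first place to the sixth.

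With the FMD cycles added, 1 chain differed from HFCD by the test. Of 33 chains 1, Col23a1, fell in HFCD+FMD against HFCD, where 0.179% of all genes fell. Col23a1 was at 5.08, 3.63, 5.61, 2.97, 3.42 and 5.52 CPM in the 6 HFCD+FMD libraries. All 6 lay below all HFCD libraries, and 5 of the 6 lay above the highest control library. The gene fell by 1.24 on the log2 scale (SE 0.19, edgeR adjusted p = 0.0238). This call was lost in 6 of the 13 fits that leave out 1 library, namely without HFCD+FMD replicate 2 or 5 or any of the 4 HFCD libraries.

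The next chains in order of p were the type IV pair. Col4a2 in HFCD+FMD ran from 946 to 1541 CPM with a median of 1102 CPM, below the 1661 to 1971 CPM of HFCD in every library, with an estimate of -0.68 (SE 0.15, edgeR adjusted p = 0.112). Col4a1 ran from 1204 to 2052 CPM, also below every HFCD library, with an estimate of -0.62 (SE 0.17, edgeR adjusted p = 0.188). DESeq2 called both lower beside Col23a1, where it called 1.23% of all genes lower, as did edgeR with control replicate 1 and HFCD+FMD replicate 4 left out. Col18a1 had an estimate of -0.61 (edgeR adjusted p = 0.301), Col8a1 of -0.40 (0.267) and Col5a1 of -0.40 (0.414). Col1a1 overlapped widely, with 858 to 1494 CPM in HFCD+FMD. At an unadjusted p below 0.05 edgeR had 7 of 33 chains, against 11.2% of all genes. In all, 25 of 33 estimates were below 0, with a median of -0.32 over the chains and 0.011 over all genes. Both comparisons use the same 4 HFCD libraries, so a high draw of those would move them in opposite directions.

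Against the control diet 13 of 33 chains rose in HFCD+FMD and 0 fell, where 10.5% of all genes rose, and the median was 0.64. These were Col1a1, Col1a2, Col3a1, Col4a2, Col5a1, Col5a2, Col6a3, Col8a1, Col12a1, Col16a1, Col17a1, Col18a1 and Col23a1. Col8a1, at 9.34 to 14.1 CPM, kept the lowest adjusted p, with a rise of 1.39 (SE 0.16, edgeR adjusted p = 0.0011). Col6a3, at 349 to 527 CPM, rose by 1.28 (SE 0.22, edgeR adjusted p = 0.00422). Both were above every control library in every HFCD+FMD library. Col17a1, a chain of epithelial hemidesmosomes, was at 0.447 to 1.57 CPM against 0, 0.178 and 0.280 CPM on control, with a rise of 2.20 (SE 0.68, edgeR adjusted p = 0.0394). Against HFCD its estimate was 0.76 (SE 0.51, edgeR adjusted p = 0.601). The 2 epithelial markers tested were not called in this comparison. Col6a5, named after its values were seen, was at 5.42 to 27.8 CPM on control and 2.40 to 9.87 CPM on HFCD+FMD, which overlapped. Its estimate was -1.74 (SE 0.70, edgeR adjusted p = 0.0916). DESeq2 called 17 chains higher, and the share of all genes it called higher is not given here. It called Col6a5 lower, where it called 12.4% of all genes lower. With age as a covariate edgeR called 12 chains higher and Col6a5 lower. The count rested on the few control libraries. It was 2 chains (Col6a3 and Col8a1) without control replicate 1, 3 without control replicate 3 and 8 without HFCD+FMD replicate 6. It was 2 with control replicate 1 and HFCD+FMD replicate 4 left out together.

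HFCD+FMD replicate 4 stood out for several chains. It was the highest of its group for Col12a1 (70.0 CPM, the others 8.33 to 25.9), Col28a1 (70.7 CPM, the others 8.55 to 19.5), Col4a1 and Col4a2, and the lowest for Col15a1 (659 CPM). The same library had the lowest fibroblast marker sum of its group (4570 CPM) and the highest endothelial one (2360 CPM). The part of this in the values was not tested.

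Markers of other cell types moved with the diets in adipose tissue. On HFCD against control 8 of 10 macrophage markers and 6 of 6 genes of dividing cells rose, where 15.7% of all genes did. In the same comparison 7 of 8 mesothelial markers fell and 5 of 10 adipocyte markers fell while 1, Lep, rose, where 14.2% of all genes fell. Summed macrophage markers were 307 to 1590 CPM on control, 2500 to 4750 on HFCD and 1150 to 3620 on HFCD+FMD. Summed mesothelial markers were 231 to 499, 23.9 to 135 and 33.8 to 241 CPM. Markers of fibroblasts, the main source of fibrillar collagen, rose in 2 of 12 cases, a share near that of all genes, and their sum was 7910 to 11000 CPM on control, 9720 to 11300 on HFCD and 4570 to 10000 on HFCD+FMD. Endothelial markers, of cells that make type IV collagen, rose in 3 of 8 cases, with sums of 857 to 987, 1280 to 1460 and 1210 to 2360 CPM. The part of any of these cell types in the collagen values was not tested.

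The collagen share of all counts put the chains together. It was 0.328 to 0.793% on control, 1.46 to 1.67% on HFCD and 1.10 to 1.53% on HFCD+FMD in adipose tissue, without overlap between control and the others. In heart it was 0.0741 to 0.194% over all libraries. The totals include mitochondrial counts, and the lowest heart shares, up to 0.0937%, were those of the libraries with high mitochondrial share. As summed scaled CPM the chains were at 1088 to 1487 in heart. In adipose tissue they were at 4961 to 8840 on control, 13270 to 16330 on HFCD and 10270 to 13660 on HFCD+FMD. Class shares below are of the summed collagen CPM per kilobase of exons. By these, heart collagen was richer in network chains, at 31.6 to 54.8% against 22.05 to 37.2% in adipose tissue. HFCD+FMD replicate 5 was the only heart library within the adipose range. Within adipose tissue the network share was 26.9 ± 3.72% (SD, n = 3) on control, 31.3 ± 5.397% (n = 4) on HFCD and 24.5 ± 2.20% (n = 6) on HFCD+FMD, and these ranges overlapped. The fibrillar share was 31.9 ± 1.38%, 34.6 ± 5.58% and 35.9 ± 4.53%.

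**Figure D3:**
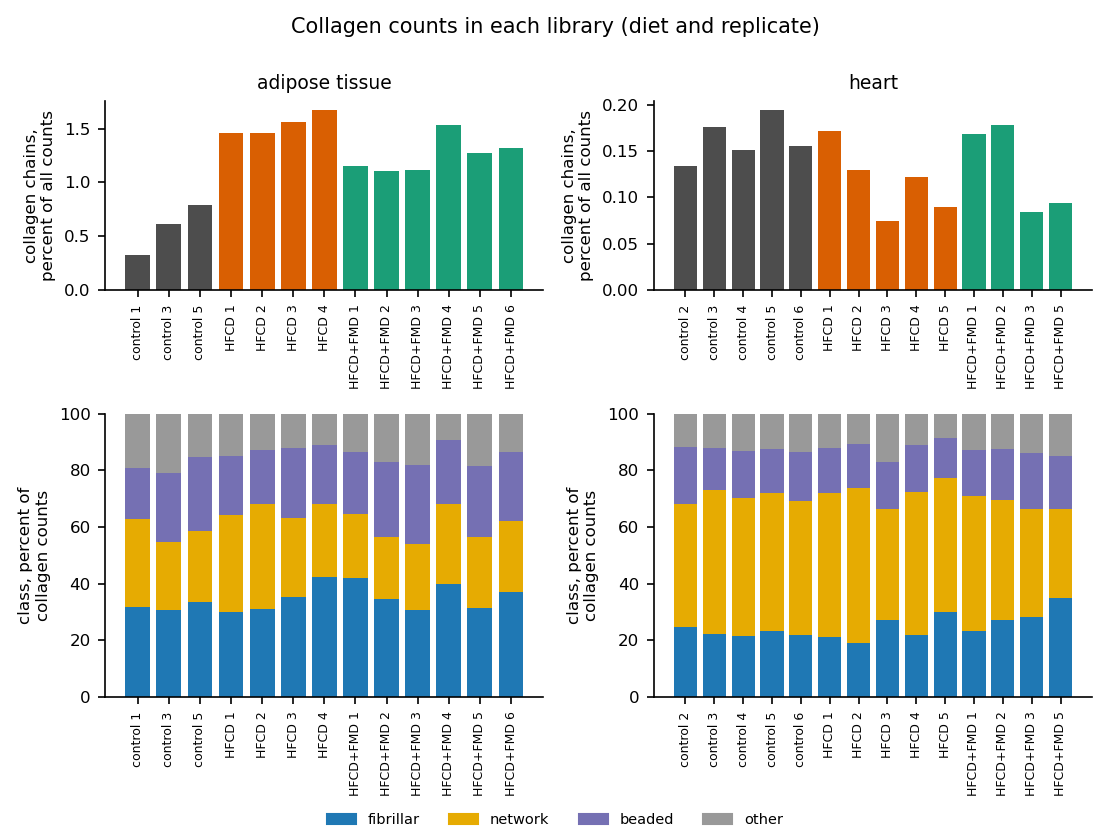
Top: collagen chains as a percent of all counts, mitochondrial ones included (y axis from 0). Bottom: each class as a percent of collagen counts per kilobase of exons. Every library is on the x axis (diet and replicate), with adipose tissue left and heart right. In adipose tissue the 3 control libraries have the lowest collagen shares, up to 0.793%, and in heart the network class is the largest in all 14 libraries but HFCD+FMD replicate 5.

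Pairs of chains were also set against each other within a library, which does not depend on the scaling. The ratio of Col6a3 to Col6a1 per kilobase was 0.0941 to 0.128 on control, 0.156 to 0.232 on HFCD and 0.124 to 0.185 on HFCD+FMD. HFCD and control did not overlap, and the exact permutation test, two-sided, gave p = 0.0571, the smallest that 3 against 4 libraries can give. The ratio of Col6a3 to Col6a2 behaved alike, at 0.187 to 0.232 on control and 0.267 to 0.438 on HFCD (exact permutation p = 0.0571). The ratio of Col4a1 to Col4a2 went the other way, from 1.24 to 1.40 on control to 1.11 to 1.22 on HFCD (exact permutation p = 0.0571). The ratio of Col1a1 to Col3a1 was 0.737 to 0.815 on control and 0.692 to 0.786 on HFCD and overlapped (exact permutation p = 0.286). Of 18 ratio tests 0 passed after adjustment over the 18, and 2 had an unadjusted p below 0.05, both of Col6a3 in HFCD+FMD against control (exact permutation p = 0.0476, adjusted 0.206).

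**Figure D4:**
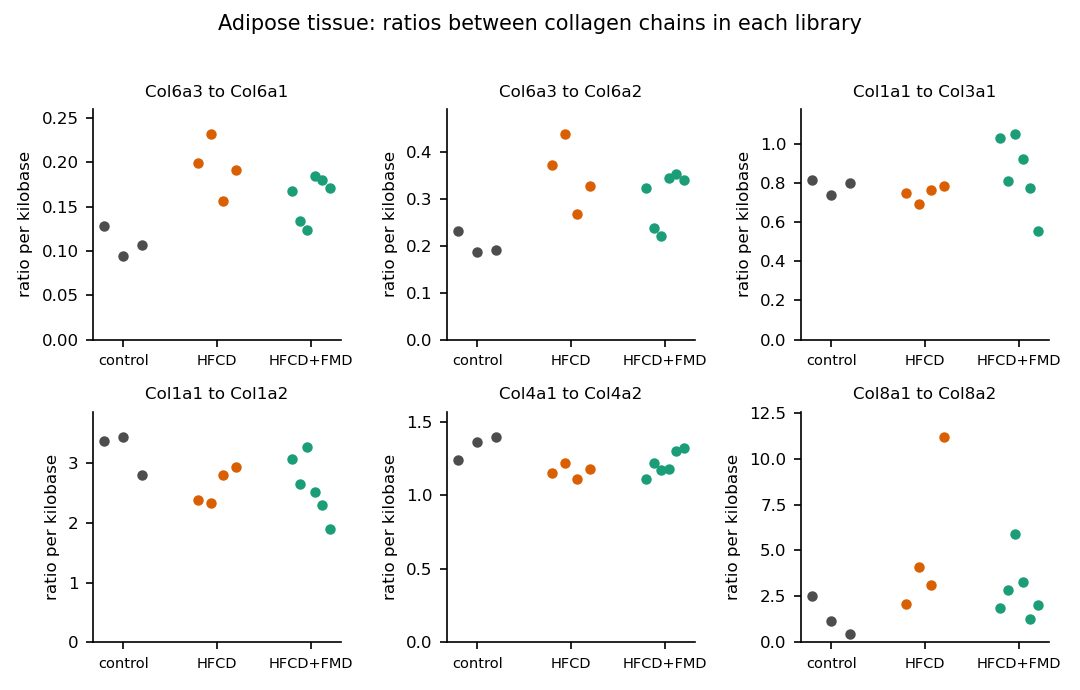
Ratio per kilobase of exons (y axis, linear from 0) of 6 pairs of chains in each of the 13 adipose libraries by diet (x axis), 1 point per library. The 3 control points are below the 4 HFCD points for Col6a3 to Col6a1 and Col6a3 to Col6a2 and above them for Col4a1 to Col4a2.

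In heart 0 of 29 chains passed the test in HFCD against control, where 0.0% of all genes did. At an unadjusted p below 0.05 edgeR had 3 of 29 chains against 12.8% of all genes, and DESeq2 called 1 chain against 0.469%. In HFCD+FMD against HFCD edgeR called 0 chains against 0.106% of all genes, had 6 at an unadjusted p below 0.05 against 11.0%, and DESeq2 called 1 against 2.11%. In HFCD+FMD against control the counts were 0 against 0.0227%, 3 against 9.48% and, by DESeq2, 1 against 1.1%. The heart medians over the chains were -0.04, 0.19 and 0.17 on the log2 scale. These heart fits hold the 3 library sets found in the deposited values as a factor. Only HFCD replicate 5 and HFCD+FMD replicate 1 link the HFCD+FMD libraries to the other diets within sets.

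Heart CPM here and below are not adjusted for library set. HFCD+FMD replicates 2, 3 and 5 were in a set that held no control library. Among the abundant heart chains type IV and VI overlapped in CPM between all diets. The Col3a1 and Col1a2 libraries of HFCD+FMD lay above those of control in CPM. Col4a1 was at 298 ± 38.5 CPM (SD, n = 5) on control, 304 ± 50.2 (n = 5) on HFCD and 269 ± 57.4 (n = 4) on HFCD+FMD. Col6a3 was at 39.3 ± 5.596, 39.7 ± 9.24 and 49.3 ± 5.21 CPM. Col3a1 was at 121 ± 15.9, 133 ± 31.3 and 188 ± 46.3 CPM, with HFCD+FMD from 142 to 246 CPM and control from 103 to 141 CPM. These ranges did not overlap. Its set-adjusted estimate of HFCD+FMD against control was 0.33 (SE 0.22, edgeR adjusted p = 0.668). Col1a2 was at 64.5 to 89.96 CPM on control and 94.5 to 121.5 CPM on HFCD+FMD, also without overlap, with an estimate of 0.41 (SE 0.20, edgeR adjusted p = 0.552). Col1a1 was at 71.7 ± 11.1, 85.0 ± 34.8 and 106 ± 26.5 CPM, and its estimate was 0.16 (SE 0.31, edgeR adjusted p = 0.885).

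The lowest heart p in HFCD against control was that of Col5a3. It was at 16.6 to 24.9 CPM with a median of 23.0 on control, 7.30 to 15.9 with a median of 12.5 on HFCD and 5.51 to 10.0 with a median of 8.06 on HFCD+FMD. Every control library was above all the others. The estimate was -0.92 for HFCD (SE 0.20, edgeR adjusted p = 0.312) and -1.09 for HFCD+FMD against control (SE 0.27, edgeR adjusted p = 0.18), and DESeq2 called both lower. Of the adipocyte markers 5 of 9 had an unadjusted edgeR p below 0.05 in HFCD against control, where 12.8% of all genes did. The list median was -2.30, and 2 of the 9 estimates were above 0. In HFCD+FMD against control 2 of the 9 were called lower, as were 3 of all 13230 genes, with a list median of -7.55. In HFCD+FMD against HFCD 2 were called lower, as were 14 of all genes, with a list median of -5.25. In each of these comparisons 1 of the 9 estimates was above 0. The summed markers overlapped, at 5320 to 8410 CPM on control, 4990 to 9370 on HFCD and 5870 to 8860 on HFCD+FMD. Most of each sum was Lpl, at 4960 to 7580, 4500 to 8510 and 5470 to 8370 CPM. Adipoq, made by fat cells, was at 0.442 to 3.01 CPM on control, 0.0722 to 9.31 on HFCD and 0.0875 to 0.321 on HFCD+FMD. The part of fat cells in the heart samples in the Col5a3 values was not tested. Col28a1 was at 0.182 to 1.02 CPM on control, 1.11 to 2.63 on HFCD and 0.267 to 0.507 on HFCD+FMD. Every HFCD library was above all the others, the estimate of HFCD+FMD against HFCD was -2.55 (SE 0.54, edgeR adjusted p = 0.072), and DESeq2 called it lower. Without control replicate 4, control replicate 5 or HFCD+FMD replicate 1 edgeR called it lower too. With the 4 heart libraries of high mitochondrial share left out edgeR called 0 chains in HFCD against control. The comparisons with HFCD+FMD then rest on its replicate 1 alone, since replicate 2 is the last library of its set, so their counts are not given.

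The diet effects were then tested against each other between the tissues, in 1 fit of the 6 tissue and diet groups that holds no library set. In HFCD against control the signed log2 fold change was higher in adipose tissue than in heart for 13 of 28 chains and lower for 0, where it was higher for 11.4% of all genes. They were Col1a2, Col3a1, Col4a1, Col4a2, Col5a1, Col5a3, Col6a1, Col6a2, Col6a3, Col11a2, Col16a1, Col18a1 and Col23a1. The lowest adjusted p was that of Col23a1, whose log2 fold change was higher by 2.13 (SE 0.30, edgeR adjusted p = 7.03e-05). Col5a1 differed by 1.43 (SE 0.24, edgeR adjusted p = 0.000329) and Col4a2 by 1.36 (SE 0.23, edgeR adjusted p = 0.000442). Col1a1 (0.88, SE 0.41, edgeR adjusted p = 0.117) and Col8a1 (1.09, SE 0.44, edgeR adjusted p = 0.0753) did not pass. Col11a2, named after its values were seen, was among the 13 with values of 0.200 to 0.996 CPM in adipose tissue and a heart level of 1.74 ± 0.471 CPM on control and 0.778 ± 0.389 on HFCD. For Col11a2 and Col5a3 the tissue fits gave estimates above 0 in adipose tissue (0.70 and 0.75) and below 0 in heart (-1.17 and -0.92), none of them called. Library totals without scaling factors moved the median of all genes in this comparison to 0.949. With these totals 20 chains passed, where 6151 of 12606 genes were higher in adipose tissue and 138 lower.

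The signed change in HFCD+FMD against control was higher in adipose tissue for 7 of 28 chains, where it was for 8.72% of all genes. These were Col4a2, Col5a1, Col5a3, Col6a3, Col16a1, Col18a1 and Col23a1. For Col5a3 the estimate was 0.30 in adipose tissue and -1.09 in heart, neither called. The count was 2 without adipose control replicate 1, 11 without adipose control replicate 5 and 0 with all 6 libraries that stand apart left out. In HFCD+FMD against HFCD the difference passed for 0 chains against 0.0159% of all genes by edgeR, with 7 at an unadjusted p below 0.05 against 8.71%, and DESeq2 called 1, Col23a1.

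On the control diet 15 of 28 chains were lower in heart than in adipose tissue, where 32.7% of all genes were, and 7 were higher, where 31.2% were. Levels here are CPM per kilobase with both tissues scaled jointly. Col5a3 had the largest difference of the chains that were lower, at 35.5 ± 13.8 (SD, n = 3) in adipose tissue and 4.44 ± 0.698 (n = 5) in heart, a log2 difference of -3.00 (SE 0.28, edgeR adjusted p = 8.36e-10). Col3a1 was at 83.6 ± 24.2 and 16.9 ± 2.25, and Col4a1 was nearer, at 108 ± 22.4 and 54.7 ± 6.38. Of the 7 chains higher in heart 4 were network ones. Col4a5 was at 0.941 ± 0.274 in adipose tissue and 4.82 ± 1.45 in heart (log2 difference 2.34, SE 0.32, edgeR adjusted p = 4.99e-07). Col8a1 was at 0.426 ± 0.0319 and 2.64 ± 1.34 (log2 difference 2.64, SE 0.36, edgeR adjusted p = 7.02e-07). Col4a3, Col4a4, Col11a2, Col23a1 and Col27a1 were higher in heart as well, but Col4a3, Col23a1 and Col27a1 were not when library totals were used without scaling factors. Col8a1 and Col23a1, the 2 chains with the lowest adjusted p for the rise on HFCD in adipose tissue, were both among the 7.

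**Figure D5:**
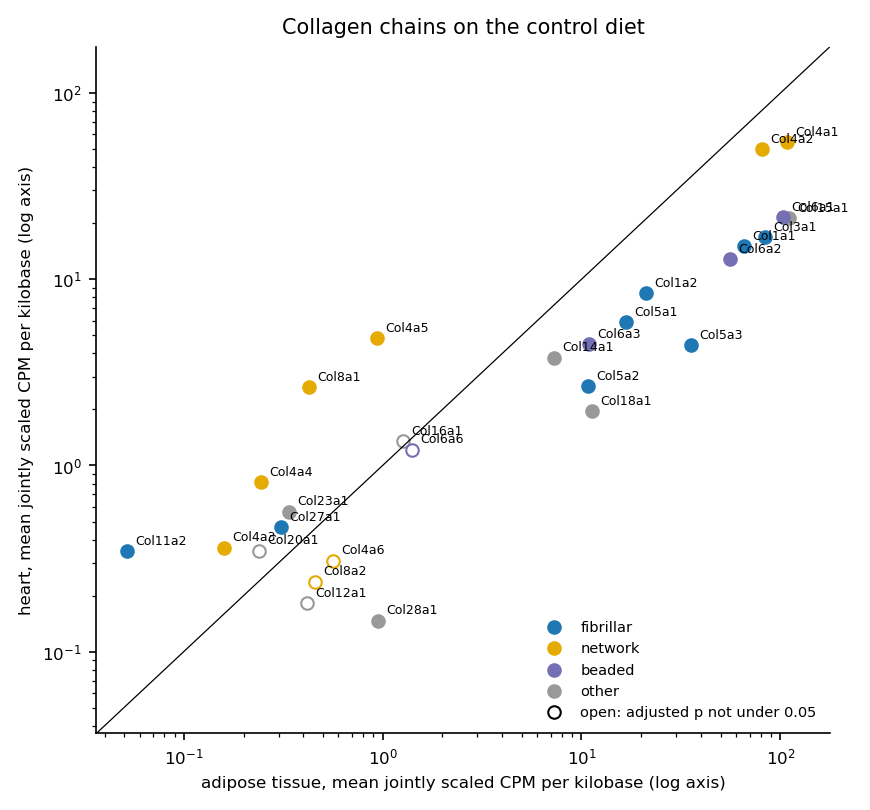
Mean jointly scaled CPM per kilobase on the control diet in adipose tissue (x axis, log) and heart (y axis, log) of the 28 chains in both tables, coloured by class, with the line of equal levels. Filled points have an adjusted p under 0.05. Col4a5 and Col8a1 lie farthest above the line among the network chains, and the abundant fibrillar and beaded chains lie below it.

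The genes that process and hold collagen were taken from 8 lists. On HFCD against control in adipose tissue 34 of 108 rose and 2 fell, where 15.7% of all genes rose and 14.2% fell, with a median of 0.40. Single lists of few genes, such as 2 of 9 or 4 of 18 below, are near that share. Of the genes of chain modification and folding 6 of 22 rose, among them Colgalt1, which adds galactose to hydroxylysine (0.98), and P3h1, a prolyl 3-hydroxylase (0.87). Both Adamts2, which removes the amino-terminal propeptide (1.11), and Pcolce, which aids removal of the other end (1.10), rose among 7 genes of propeptide removal. Of 6 crosslinking genes Lox (1.11) and Loxl3 (0.75) rose. Of 19 genes of breakdown and uptake 8 rose and 1 fell, with Mrc2, a collagen uptake receptor, at 18.7 ± 6.13 CPM on control and 203 ± 69.6 on HFCD (log2 fold change 3.44, SE 0.48, edgeR adjusted p = 0.000876). Of the 15 basement membrane partners 6 rose, among them Hspg2, the proteoglycan perlecan, with 1.33 (SE 0.17, edgeR adjusted p = 0.000564). Of 12 receptors 4 rose and 1 fell, of 9 fibril proteoglycans 2 rose, and of 18 genes of TGF-beta signalling 4 rose, among them Tgfb1 with 1.27 (SE 0.32, edgeR adjusted p = 0.0117). In HFCD+FMD against control 26 of 108 rose and 0 fell, where 10.5% of all genes rose. In HFCD+FMD against HFCD edgeR called 0, with 20 at an unadjusted p below 0.05 where 11.2% of all genes were, and in heart it called 0 of 104 in each comparison. The lists and the collagen chains were chosen with these results in view, so the direction of the lists is no independent support.

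The 150 bases before the annotated start are shown for 5 chains that rose on HFCD, so that their sequence can be set beside their shared rise. They are from RefSeq on GRCm38.p6, read toward the gene. Capitals mark TATAAA in Col3a1 and the GC box GGGCGG or its complement CCGCCC in Col5a1, Col8a1 and Col23a1. Col6a3 holds neither. The windows are chr1:45311388-45311537 (plus strand) for Col3a1, chr2:27886275-27886424 (plus) for Col5a1, chr1:90843972-90844121 (minus) for Col6a3, chr16:57754738-57754887 (minus) for Col8a1 and chr11:51289770-51289919 (plus) for Col23a1.
Col3a1: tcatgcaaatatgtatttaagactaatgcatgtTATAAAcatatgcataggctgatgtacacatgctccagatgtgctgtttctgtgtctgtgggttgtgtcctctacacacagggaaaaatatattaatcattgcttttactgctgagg
Col5a1: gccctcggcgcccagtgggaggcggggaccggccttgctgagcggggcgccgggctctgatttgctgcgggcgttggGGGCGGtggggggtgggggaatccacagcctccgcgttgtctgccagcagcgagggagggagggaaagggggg
Col6a3: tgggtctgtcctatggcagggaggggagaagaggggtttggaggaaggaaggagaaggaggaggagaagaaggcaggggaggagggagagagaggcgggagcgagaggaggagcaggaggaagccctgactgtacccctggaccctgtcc
Col8a1: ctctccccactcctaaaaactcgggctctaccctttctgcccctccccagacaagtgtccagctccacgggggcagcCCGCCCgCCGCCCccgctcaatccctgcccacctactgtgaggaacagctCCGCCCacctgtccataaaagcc
Col23a1: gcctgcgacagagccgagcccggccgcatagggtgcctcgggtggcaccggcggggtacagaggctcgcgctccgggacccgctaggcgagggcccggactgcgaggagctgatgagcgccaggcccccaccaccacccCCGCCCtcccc

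The 5 upstream windows look unlike: that of Col3a1 is rich in A and T and holds TATAAA, far from the start. That of Col6a3 is largely G and A between its ends. Over 300-base windows (250 bases before to 50 after each start, both strands) RefSeq entries matched 28 of the 34 chains with 30 windows. TATAAA was in 4 of these 30 windows and in 7.84% of 15009 windows of all genes. GGGCGG was in 20 of 30 and in 58.9% of all, and CCAAT in 10 of 30 and in 37.2%. A match is a run of letters and not a shown binding site.

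Several chains lie side by side in the genome. Col4a1 and Col4a2 start head to head on chromosome 8 and their annotated first exons overlap by 22 bases. Col4a3 and Col4a4 start 71 bases apart and Col4a5 and Col4a6 1308 bases apart, each pair in opposite directions. The 2 members of the first pair rose together on HFCD, while in the X-linked pair Col4a5 had an estimate of 0.12 and Col4a6 of -1.80, neither past the threshold. Whether the counting used strand is not given in the sources used here, so reads in the overlap of Col4a1 and Col4a2 cannot be assigned. Col6a1 and Col6a2 lie 85161 bases apart on chromosome 10, and Col3a1 and Col5a2 24614 bases apart on chromosome 1, facing each other.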

How the data were processed

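RNA of 27 libraries, 13 of adipose tissue and 14 of heart, was analysed of 34 labelled, and the other 7 were not analysed here. The authors deposited read counts per gene, as whole numbers without normalization (0 per-sample columns were left out). The authors also deposited log2 CPM with 0.5 added to each count, in heart with 1 term per gene removed for each of 3 library sets, as found by comparing both tables (within 9.7e-09). STAR 2.5.3, the build mm10, R 3.5.3, edgeR and limma are named per the submitters' processing notes. The counting program, its annotation and its use of strand are not given in the sources used here. What the library sets stand for is not stated.

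Counts were fitted in R 4.3.3 with edgeR 4.0.16 (TMM, filterByExpr, robust quasi-likelihood F-test, two-sided, Benjamini-Hochberg over all genes, false discovery rate 0.05), 1 model per tissue, with the library set as a factor in heart, and 1 joint model of 6 groups for the tissue differences. All 33 adipose and 29 heart chains passed the filter, which kept 15112 and 13230 genes. The joint model tested the 12606 genes in both count tables. Standard errors were taken from the fold change and F. Ratios had 0.5 counts added. Alternatives used DESeq2 1.42.0, limma 3.58.1, other scalings and filters, age as a covariate and fewer libraries. The scripts were tested on simulated counts. Exon lengths and coding exons are from GENCODE M21 on GRCm38 and promoters from RefSeq. The members, lists and tests were chosen with earlier results of these data known. Values are given for every chain called within a tissue and for 14 chains named whatever their result, and up to 3 genes per list with the smallest p.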

Additional observations from a re-analysis of the deposited data

Results flagged for a closer look

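In 5 of 92 sets of libraries of 1 chain, tissue and diet, the highest or lowest library lay apart from its group. The rule was Dixon's gap criterion at the 0.05 level, which by its construction marks about 1 in 20 groups. The 92 sets do not cover every chain, tissue and diet. In adipose tissue HFCD+FMD replicate 4 was high for Col12a1 (70.0 CPM, the next library 25.9), Col28a1 (70.7 CPM, next 19.5) and Col4a2 (1541 CPM, next 1126). HFCD+FMD replicate 1 was low for Col18a1 (132.5 CPM, next 189.2). In heart HFCD replicate 3 was high for Col12a1 (6.19 CPM, next 2.16), and this library had the highest mitochondrial share in heart, 71.5%.

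Diet effects that differed between the tissues by the interaction test are given as the adipose minus the heart log2 fold change. In HFCD against control the difference was 1.03 for Col3a1, 1.6 for Col6a3, 1.43 for Col5a1, 2.63 for Col16a1, 1.17 for Col1a2, 0.87 for Col6a2 and 0.89 for Col6a1. It was 1.54 for Col18a1, 1.11 for Col4a1, 1.36 for Col4a2, 1.70 for Col5a3, 2.13 for Col23a1 and 1.91 for Col11a2. In HFCD+FMD against control it was 0.95 for Col6a3, 0.76 for Col5a1, 1.84 for Col16a1, 1.16 for Col18a1, 0.88 for Col4a2, 1.77 for Col5a3 and 1.07 for Col23a1.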

How the results depend on the processing

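The counts of chains called moved with the libraries, the test and the scaling. Leaving out 1 library at a time gave 10 to 17 chains in adipose HFCD against control, 0 to 2 in HFCD+FMD against HFCD and 2 to 15 in HFCD+FMD against control. It gave 0 to 2 in heart HFCD+FMD against HFCD, 10 to 14 for the tissue difference in HFCD against control and 2 to 11 for that in HFCD+FMD against control. With the libraries that stand apart left out, an alternative chosen after seeing the data, the adipose counts of HFCD+FMD were 3 against HFCD and 2 against control, and the tissue difference in HFCD+FMD against control passed for 0. DESeq2 gave 3 in adipose HFCD+FMD against HFCD, 1 in each heart comparison and 1 for the tissue difference in HFCD+FMD against HFCD. The deposited log2 values with limma gave 1, 7 and 4 chains in heart HFCD against control, HFCD+FMD against HFCD and HFCD+FMD against control. That fit held diet alone, on heart values with the set terms already removed, so it did not allow for their estimation. The share of all genes it called is not given here. Library totals without scaling factors, also chosen after seeing the data, gave 20 for the tissue differences in HFCD against control and in HFCD+FMD against control. There 6151 and 6111 of 12606 genes were higher in adipose tissue. The cause of these shifts in the counts was not tested. No diet call on a single chain changed direction under an alternative. No paired analysis was possible because the labels give no replicate numbers. Those used here follow accession order and only name the libraries. With 3 adipose control libraries, chains with means under 1 CPM (Col11a2, Col13a1, Col17a1, Col6a4, Col7a1) rest on few counts.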
